A study of Drosophila melanogaster with 24 samples.

Results

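The fat bodies of Drosophila melanogaster larvae that carried epithelial tumours were compared with those of tumour-free larvae at day 5 after egg laying. In the tumour larvae (genotype C855a-Gal4/UAS-scrib-RNAi) the driver C855a-Gal4, which acts in epithelia such as the wing disc, knocked down scrib, a gene for epithelial cell polarity whose loss causes tumours. The control larvae are labelled C855a-Gal4/UAS-control-RNAi, with the same driver. What the control construct contains was not checked here. Tumour larvae do not reach the pupal stage and go on growing as larvae. Each library pooled the fat bodies of 50 larvae from eggs laid within 3 h, and total RNA was sequenced as 150 bp read pairs. There were 4 tumour and 4 control libraries of day 5 among 24 libraries in all, and no library was left out. The other 16 were 4 tumour and 4 control libraries of day 4, and 4 tumour libraries each of days 8 and 11. Whether the 4 pools of a group were raised apart is not stated in the labels, and a p-value here measures the spread between pools only. The tumours lie outside the sampled tissue, and the samples are labelled as adipocytes.

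The larval fat body combines tasks that are divided between liver and adipose tissue in vertebrates. It stores triacylglycerol and glycogen, secretes most haemolymph proteins, detoxifies and mounts the humoral immune response. During the last larval stage its cells secrete and then take back storage proteins, the larval serum proteins, which feed metamorphosis. Pulses of the steroid hormone ecdysone end larval growth: they stop feeding, switch the fat body from making proteins to storing them and start autophagy there.

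Total counts were between 17069241 and 21711263 per tumour library and between 16477328 and 19419063 per control library. Genes with at least 1 count numbered 10032 to 12427 in tumour and 10071 to 10190 in control libraries. Levels are given as CPM (counts divided by the library total and scaled by the trimmed mean of M values), which depend on transcript length and are compared only within a gene. The fat body marker list was at 282173 to 434610 summed CPM in tumour and 467889 to 502882 CPM in control libraries, with none of its 14 genes at 0. Of these 14 genes 8 were higher and 2 lower with tumours (median log2 fold change 0.35), and Fbp1, 1 of the 14, averaged 949.6, 4436, 2599.8 and 3980.0 CPM with tumours and 298646, 263810.0, 246520.0 and 274954 CPM in controls. Traces of other organs differed between libraries. Testis markers reached 169 CPM in tumour library 1 and at most 6.92 CPM in the other 7 libraries. Tumour library 3 had the highest muscle (403 CPM) and tracheal (112 CPM) sums, and control library 3 the highest salivary gland sum (1667 CPM). Salivary gland markers summed to 0.253, 81.1, 0.363 and 244 CPM in tumour libraries 1 to 4. Gut markers summed to 397, 269, 7.41 and 4.97 CPM in tumour libraries 1 to 4. In control libraries 1 to 4 the gut sums were 263, 6.64, 2.42 and 193 CPM. Haemocyte markers summed to 347 to 528 CPM with tumours and 124 to 220 CPM in controls, and muscle markers to 170 to 403 CPM with tumours and 95.04 to 131 CPM in controls. Neither pair of ranges overlapped (two-sided exact permutation test, p = 0.0286 each, the smallest that 4 against 4 libraries allow; adjusted p = 0.08 over 14 marker lists). Their part in the results below was not tested except where a value is given.

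The targeted gene was only slightly lower in the fat body, which is not the epithelium that the driver is described for. scrib was at 38.3, 34.4, 34.1 and 35.6 CPM in tumour libraries 1 to 4, against 43.4, 48.4, 41.4 and 43.2 CPM in control libraries 1 to 4. The groups did not overlap (log2 fold change -0.31 ± 0.10, adjusted p = 0.01 by the quasi-likelihood test of edgeR, adjusted over 8707 genes after Benjamini and Hochberg, as throughout). Errors of log2 fold changes are standard errors. Without tumour library 3 the difference no longer passed (-0.24, adjusted p = 0.0833).

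Of the 8707 genes tested, 54.9% passed an adjusted p under 0.05, with 26.7% higher and 28.2% lower in tumour larvae. These passing genes are said below to have risen or fallen, or to be called. These words compare tumour with control larvae at day 5, and not day 5 with day 4. Large changes were common: 25.2% of the tested genes were called and differed at least 2-fold, 545 were at least 4-fold higher and 485 at least 4-fold lower. At 16-fold or more, 147 genes were lower and 102 higher. The 4 tumour and 4 control libraries did not overlap for 48.6% of the tested genes (22.4% higher, 26.2% lower), while the median of all tested genes was 0.03 on the log2 scale. Of the 3929 genes not called, 2408 had a 95% interval within 2-fold either way. For the others a change of 2-fold could not be told from none. In pooled tissue, fewer cells of a type and less RNA per cell cannot be told apart.

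The 10 genes with the highest fold changes among those reaching 100 CPM were Cyp4e3, CG32073, TotC, CG16898, Cyp12a4, tobi, CG8654, glob1, CG3513 and Fmo-2. CG8654 was at 961, 783, 529 and 709.7 CPM with tumours and 40.7, 68.1, 17.4 and 19.7 CPM in controls (log2 fold change 4.36 ± 0.36, adjusted p = 1.54e-09). CG3513 averaged 193 ± 6.11 CPM with tumours and 11.1 ± 1.56 CPM in controls, a gap many times the spread within either group. CG32073 (log2 fold change 5.78 ± 0.91, and 6.91 without control library 1) and Fmo-2, a flavin monooxygenase (log2 fold change 4.10 ± 0.69, and 5.00 without control library 3), varied more, since a single control library held most of their control signal. The 10 lowest were Drsl5, santa-maria, CG34206, CG9812, Oat, Hsp23, CG5697, CG17739, Glut1 and Eip78C. CG34206 had 0, 1, 1 and 1 counts in tumour libraries 1 to 4, against 7318, 5154, 3386 and 7382 counts in control libraries 1 to 4. CG9812 was at 0.203, 0.269, 3.42 and 0.765 CPM with tumours, against 2878, 2348, 1616 and 2940.0 CPM in controls (log2 fold change -10.99 ± 0.92, adjusted p = 2.59e-09). Tumour library 3 held most of the remaining tumour signal of CG9812 and CG17739, whose log2 fold changes without it were -12.45 and -9.73, against -10.99 and -8.59 with it.

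In CPM gained or lost, the genes that moved most were mainly those of abundant proteins. Beside Lsp1beta, the largest gains included eEF1alpha1, apolpp, Desat1, eEF2, FASN1, Idgf6 and regucalcin, a calcium-binding protein (12096 CPM with tumours, 7725 CPM in controls, log2 fold change 0.65 ± 0.18). Desat1, the fatty acid desaturase, was at 6115, 5595, 5102 and 5845 CPM with tumours and 803, 948, 444 and 691 CPM in controls (log2 fold change 2.97 ± 0.23, adjusted p = 5.58e-10). The largest losses beside Fbp1 were of CG11089, Hsp23, Gart, CG31075, NimC2, Cpr49Ac, Gs1, CG5958 and CG9812. CG31075 was at 328, 878, 693 and 546 CPM with tumours and 6309, 4935, 5233 and 5969 CPM in controls (log2 fold change -3.20 ± 0.27, adjusted p = 2.19e-09), with tumour library 1 lowest. CG5958 averaged 560.1 CPM with tumours, 3228 CPM in controls (log2 fold change -2.53 ± 0.16).

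**Figure D1:**
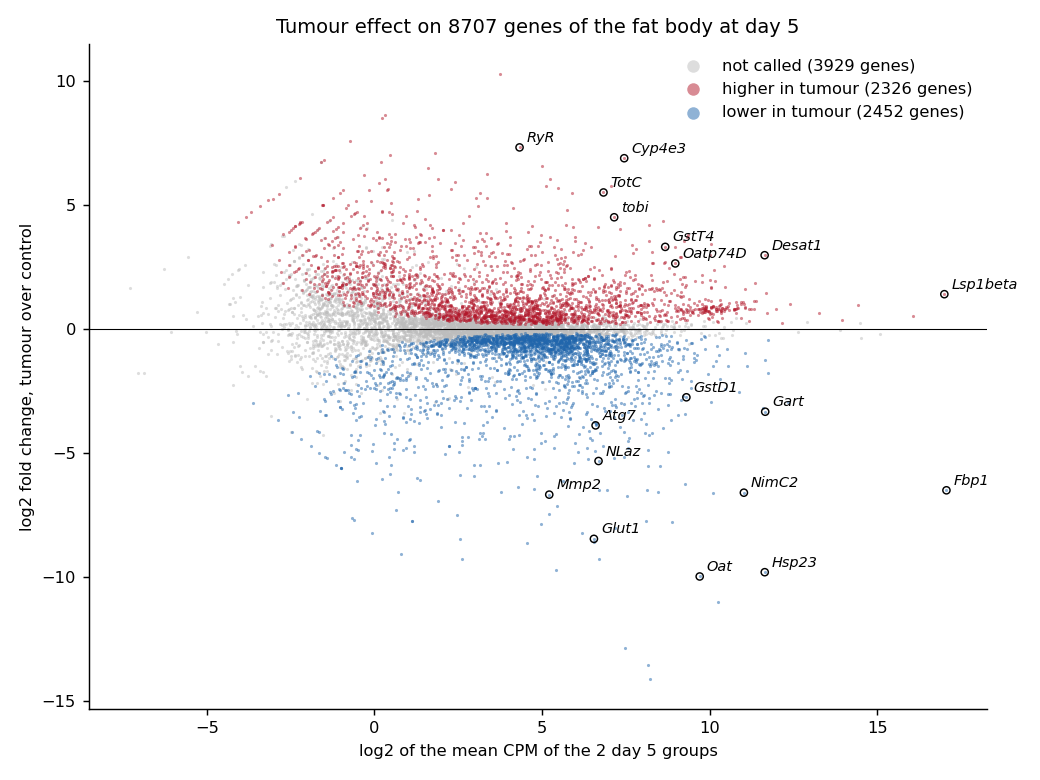
Each of 8707 tested genes by its mean level over both groups (x axis, log2 CPM) and its log2 fold change of tumour over control at day 5 (y axis). Red points are the 2326 genes called higher with tumours, blue points the 2452 called lower and grey points the 3929 not called. Circled genes are described in the text, and 2 genes at 0 in all 8 libraries are not drawn.

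The genes of the storage list, 4 larval serum protein genes with Fbp1 and Fbp2, took a large part of each library in both groups. The make-up of that part differed. Lsp1beta, a subunit of larval serum protein 1 (2L:898500-901316, BDGP6), was at 224449, 214747, 147665 and 174435 CPM in tumour libraries 1 to 4, against 64401, 85346, 76617 and 61691 CPM in control libraries. Every tumour library was above every control library (log2 fold change 1.40 ± 0.26, adjusted p = 8.83e-05). Fbp1 (3L:14094589-14098053), the receptor with which fat body cells take larval serum proteins back up, was at 949.6, 4436, 2599.8 and 3980.0 CPM with tumours and at 298646, 263810.0, 246520.0 and 274954 CPM in controls. The difference was large (log2 fold change -6.50 ± 0.75, adjusted p = 2.60e-07), and the tumour libraries themselves spread more than 4-fold.

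As a share of all counts, Lsp1beta made up 18.2% ± 1.91 with tumours and 6.38% ± 1.08 in controls, and Fbp1 0.289% ± 0.146 with tumours and 23.9% ± 1.26 in controls (SD, n = 4 each here and below). The 4 larval serum protein genes together held 29.4% ± 4.40 of the counts with tumours and 15.2% ± 2.24 in controls (exact permutation test, two-sided p = 0.0286). All 6 genes of the storage list, with Fbp1 and Fbp2, held 32.1% ± 4.31 with tumours and 41.0% ± 1.49 in controls, a difference of -8.94 points (exact permutation test, two-sided p = 0.0286). This direction rests on Fbp1: without it the difference is 14.7 points. Lsp1alpha (32333 CPM with tumours, 36824 CPM in controls), Lsp2 (6138 CPM with tumours, 6689 CPM in controls) and Fbp2 (24878 CPM with tumours, 21175 CPM in controls) were not called. Lsp1gamma averaged 80312 CPM with tumours and 56401 CPM in controls (log2 fold change 0.51 ± 0.18, adjusted p = 0.0206), with overlapping groups, and lost its call without tumour library 1 (0.35, adjusted p = 0.117) or tumour library 2 (0.39, adjusted p = 0.0862) and without control library 1 or 4. Its call was also lost with day 5 libraries alone in the fit (0.50, adjusted p = 0.075 by edgeR).

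**Figure D2:**
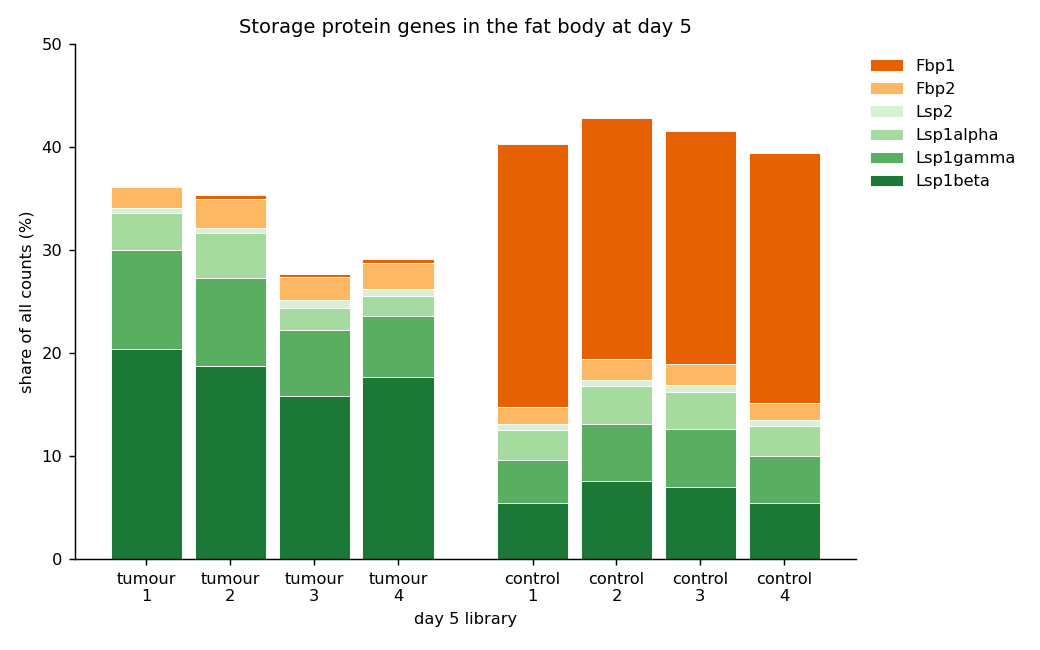
Share of all counts (y axis, %) held by the 6 genes of the storage list in each day 5 library (x axis, tumour libraries left, control libraries right), stacked by gene. The list holds 4 larval serum protein genes with Fbp1 and Fbp2. The orange Fbp1 segment averages 0.289% with tumours and 23.9% in controls, and the dark green Lsp1beta segment 18.2% with tumours and 6.38% in controls.

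Genes that answer ecdysone were mostly lower. Of 15 tested receptor and response genes 13 fell and 2 rose, where 28.2% of all tested genes fell. The enzyme genes Cth and MsrA are among those that fell, and Cth is counted again in the methionine list below. Their median log2 fold change was -1.73, against 0.03 over all tested genes. The nuclear receptor Eip78C averaged 0.476 CPM with tumours and 145 CPM in controls (-8.21 ± 0.41), and the receptor Hr4 1.11 CPM with tumours, 290.3 CPM in controls (log2 fold change -8.04 ± 0.51). br, the transcription factor that directs the larval to pupal change, was at 54.9, 65.3, 173 and 122 CPM with tumours, against 1266, 913, 1202 and 1143 CPM in controls. These groups lay far apart (log2 fold change -3.44 ± 0.33, adjusted p = 2.00e-08), with tumour libraries 3 and 4 above tumour libraries 1 and 2. Eip75B fell by less (134 CPM with tumours, 444 CPM in controls, log2 fold change -1.73 ± 0.18), as did Eip74EF (173 CPM with tumours, 353 CPM in controls, log2 fold change -1.03 ± 0.21), Hr39 (8.35 CPM with tumours, 43.4 CPM in controls, log2 fold change -2.37 ± 0.23), the coactivator tai (109.8 CPM with tumours, 293 CPM in controls, log2 fold change -1.42 ± 0.15) and usp, the partner of the ecdysone receptor (28.8 CPM with tumours, 38.7 CPM in controls, log2 fold change -0.43 ± 0.07).

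The exceptions were the receptor itself and ftz-f1, a nuclear receptor that gives tissues competence for a later pulse. EcR was at 78.9, 96.9, 173 and 139 CPM with tumours and 71.1, 96.0, 91.6 and 62.4 CPM in controls. The groups overlapped (log2 fold change 0.60 ± 0.21, adjusted p = 0.0193), and the call was lost on leaving out tumour library 3, tumour library 4, control library 1 or control library 4 (adjusted p = 0.0562 to 0.0893). It was also lost with day 5 libraries alone in the fit (adjusted p = 0.0826 by edgeR). ftz-f1 averaged 9.18 CPM with tumours and 2.22 CPM in controls (log2 fold change 2.04 ± 0.14, adjusted p = 1.31e-10).

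Some genes that handle the hormone moved in opposite directions. Oatp74D, the importer of ecdysone into cells (3L:17487118-17511693), was at 810.2, 838, 949 and 874 CPM with tumours and 154, 148, 123 and 131 CPM in controls. The lowest tumour library was more than 5 times the highest control library (log2 fold change 2.64 ± 0.15, adjusted p = 6.96e-12). shd, the enzyme that turns ecdysone into the active 20-hydroxyecdysone, rose as well (176 CPM with tumours, 34.3 CPM in controls, log2 fold change 2.36 ± 0.28). E23, a transporter proposed to export ecdysone, was at 7.15, 8.93, 10.5 and 11.4 CPM with tumours, against 409.7, 246, 349 and 349.5 CPM in controls (log2 fold change -5.16 ± 0.35, adjusted p = 1.22e-10). Of 7 such genes tested, 2 rose, 2 fell and 3 were not called. These counts are near the shares over all tested genes, of which 26.7% rose and 28.2% fell. The second that fell was Npc1a, which moves sterols out of lysosomes (63.3 CPM with tumours, 103 CPM in controls, log2 fold change -0.70 ± 0.14).

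Small heat shock proteins, chaperones that ecdysone induces in late larvae, were low in tumour fat bodies. Of 6 tested, 5 fell and none rose (median log2 fold change -3.02), and 3 fell without tumour library 1 or control library 2. Wherever a group is said here to hold no gene that rose or none that fell, that count was also 0 at an unadjusted p under 0.05 in edgeR and 0 by DESeq2. Hsp27 averaged 27.2 ± 15.3 CPM with tumours and 835 ± 202 CPM in controls (log2 fold change -4.94 ± 0.73, adjusted p = 7.73e-06). Hsp23 was at 3.45, 0.940, 8.40 and 15.6 CPM with tumours and 7236, 5927, 4807 and 7594 CPM in controls, so the tumour libraries were all below 20 CPM and the control libraries all above 4000 CPM. Without tumour library 4 its log2 fold change was -10.53, against -9.80 with all libraries. Hsp26 was not called (54.5 CPM with tumours, 142 CPM in controls, adjusted p = 0.144), though its groups did not overlap. Of 18 genes of the larger Hsp70 and Hsp90 chaperones 2 fell and none rose (median log2 fold change -0.02), and 1 fell and 1 rose without tumour library 3 or control library 3. Hsf, the heat shock transcription factor, had means of 31.1 CPM with tumours, 32.6 CPM in controls (adjusted p = 0.584). Hsc70-4, the constitutive Hsp70, had 2321 CPM with tumours, 1984 CPM in controls (adjusted p = 0.221).

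Genes of the early secretory pathway, which a tissue that exports proteins uses heavily, fell as far as they were called. Of 24 coat protein genes of the COPI and COPII vesicles 16 fell (median log2 fold change -0.42), and of 24 genes of translocation into the endoplasmic reticulum (ER) 13 fell (median log2 fold change -0.36). None of either list rose. Over all tested genes 28.2% fell and 26.7% rose. Sec24AB, the COPII subunit that selects cargo, averaged 67.2 ± 3.87 CPM with tumours and 210.4 ± 15.2 CPM in controls (log2 fold change -1.65 ± 0.09, adjusted p = 5.65e-12). Sec16, which organises ER exit sites, averaged 121 CPM with tumours, 229.6 CPM in controls (log2 fold change -0.93 ± 0.11). Without tumour libraries 1 and 3, 7 of the 24 coat genes and 3 of the 24 translocation genes still fell. Traces of other organs were present in tumour libraries 2 and 4 as well as in 1 and 3, as given above. In the translocation list 8 fell without tumour library 3 or without control library 3, and 1 rose without the first and 2 without the second. Among 19 genes of ER folding and its stress response 14 fell and 3 rose (median log2 fold change -0.58), with 5 that rose without tumour library 3. The chaperone Hsc70-3 had 445 CPM with tumours, 2393 CPM in controls (log2 fold change -2.43 ± 0.22). Herp, an ER protein that stress induces, went the other way (221 CPM with tumours, 60.1 CPM in controls, log2 fold change 1.88 ± 0.18, adjusted p = 1.03e-08), as did PEK, the kinase that senses ER stress (47.8 CPM with tumours, 31.1 CPM in controls, log2 fold change 0.62 ± 0.12). The third that rose was crc, the fly ATF4 (109.7 CPM with tumours, 85.9 CPM in controls, log2 fold change 0.35 ± 0.11).

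Transcripts of the proteasome, which degrades tagged proteins, were lower at every tested subunit. All 31 fell, with log2 fold changes of -1.51 to -0.61 and a median of -1.16, and in all 31 the 4 tumour and 4 control libraries did not overlap. Over all tested genes 28.2% fell, and the groups did not overlap for 48.6% (26.2% lower). The 13 subunits of the core particle had a median of -0.97, the 6 ATPases of the regulatory particle -1.25 and its 12 other subunits -1.20. Rpn12 fell most (23.4, 26.1, 24.7 and 23.7 CPM with tumours, against 74.9, 66.7, 60.6 and 77.0 CPM in controls). Rpn13, a ubiquitin receptor, fell least (92.9, 92.4, 95.04 and 90.8 CPM with tumours, against 152, 144, 120.5 and 150.4 CPM in controls). At day 4, in other libraries, the median of these 31 genes was -0.06, and for all 31 the difference between the effects of days 5 and 4 was called (28.8% of all tested genes were).

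Of 25 autophagy genes tested, 8 fell, 3 rose and 14 were not called (median log2 fold change -0.09), where 28.2% of all tested genes fell and 26.7% rose. Atg7, the activating enzyme of both autophagic conjugation systems (11.3, 13.6, 11.3 and 12.9 CPM with tumours, against 222, 149, 146 and 209.6 CPM in controls), was at least 10-fold lower in every tumour library than in any control library (log2 fold change -3.89 ± 0.19, adjusted p = 2.11e-12). Atg18b, a lipid-binding protein of the pathway, fell (23.9 CPM with tumours, 113 CPM in controls, log2 fold change -2.24 ± 0.26), as did Atg1, the kinase that starts autophagy (51.3 CPM with tumours, 137 CPM in controls, log2 fold change -1.42 ± 0.23). Atg3, the conjugating enzyme for Atg8, fell too (43.9 CPM with tumours, 94.7 CPM in controls, log2 fold change -1.11 ± 0.11). Atg8a, which coats the autophagosome, was not called (404 CPM with tumours, 333 CPM in controls, adjusted p = 0.184), and Mitf, a transcription factor for lysosomal genes, rose (57.4 CPM with tumours, 37.8 CPM in controls, log2 fold change 0.60 ± 0.11). Among 19 lysosomal genes 8 fell and 4 rose (median log2 fold change -0.19). The mannosidase LManI fell (51.1 CPM with tumours, 308 CPM in controls, log2 fold change -2.59 ± 0.22) and so did the protease cathD (1446 CPM with tumours, 2793 CPM in controls, log2 fold change -0.95 ± 0.23), whereas the protease CtsL1 rose (268 CPM with tumours, 148 CPM in controls, log2 fold change 0.85 ± 0.24). Of 18 subunits of the vacuolar proton pump 11 fell and 1 rose (median log2 fold change -0.31), and 3 still fell without tumour libraries 1 and 3. The 1 that rose was Vha68-3, a variant of the catalytic subunit, at 8.26, 0.269, 0.311 and 0.109 CPM with tumours and 0.0606, 0.205, 0.0563 and 0 CPM in controls. It lost its call without tumour library 1 (log2 fold change 1.49, adjusted p = 0.262), the library with the highest testis marker sum, and had a log2 fold change of 5.63 without control library 2.

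Of 15 tested in the cell death and JNK list, 6 fell and 2 rose (median log2 fold change 0.03), where 54.9% of all tested genes were called. Dark, the Apaf-1 relative that activates caspases, was at 2.53, 2.28, 2.07 and 2.46 CPM with tumours and 25.6, 19.2, 20.1 and 24.6 CPM in controls, with a clear gap (log2 fold change -3.26 ± 0.25, adjusted p = 4.09e-10). The caspase Drice fell (25.8 CPM with tumours, 46.9 CPM in controls, log2 fold change -0.86 ± 0.11) and so did the caspase inhibitor Diap1 (82.1 CPM with tumours, 147 CPM in controls, log2 fold change -0.84 ± 0.17). hid, which frees caspases by binding Diap1, rose (14.3, 14.3, 16.4 and 11.96 CPM with tumours, against 2.24, 2.19, 1.97 and 2.74 CPM in controls, log2 fold change 2.64 ± 0.34, adjusted p = 9.68e-07).

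Ribosomal protein genes rose almost without exception. Of 83 tested cytosolic ones 81 rose and none fell, where 26.7% of all tested genes rose. Their median log2 fold change was 0.81, and 6 of them were called and at least 2-fold higher. RpLP0, of the ribosomal stalk, was at 2785, 3011, 2571 and 2719 CPM with tumours, against 1255, 1364, 1323 and 1213 CPM in controls (log2 fold change 1.10 ± 0.09, adjusted p = 1.02e-09). RpS29 rose least (1149 CPM with tumours, 843 CPM in controls, log2 fold change 0.45 ± 0.07). The elongation factors eEF1alpha1 (28877 CPM with tumours, 14827 CPM in controls, log2 fold change 0.96 ± 0.09) and eEF2 (7242 CPM with tumours, 3568 CPM in controls, log2 fold change 1.02 ± 0.08) rose by similar amounts. Several ribosomal proteins have near-identical copies, between which the authors' counting may have divided reads.

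The rest of the protein synthesis machinery did not move as a block. Of 71 mitochondrial ribosomal proteins 15 rose and 5 fell (median log2 fold change 0.09), and of 20 tRNA synthetases 5 rose and 4 fell (median log2 fold change 0.04). Over all tested genes 26.7% rose and 28.2% fell. HisRS, which charges histidine tRNA, rose (172 CPM with tumours, 67.1 CPM in controls, log2 fold change 1.36 ± 0.16) and TrpRS, its tryptophan counterpart, fell (11.6 CPM with tumours, 25.2 CPM in controls, log2 fold change -1.11 ± 0.27). Without control library 3, without tumour library 3, or without tumour libraries 1 and 3 together, 2 synthetases fell. Of 33 ribosome biogenesis genes 3 rose, Non1 (969 CPM with tumours, 283 CPM in controls, log2 fold change 1.78 ± 0.16), Myc (35.7 CPM with tumours, 16.5 CPM in controls, log2 fold change 1.11 ± 0.26) and Nmd3 (60.0 CPM with tumours, 32.7 CPM in controls, log2 fold change 0.88 ± 0.12), and none fell. That count rests on control library 3, without which 15 rose. Fib, the nucleolar methyltransferase, is an example. It was at 20.6, 19.7, 25.3 and 23.3 CPM with tumours, against 8.36, 9.59 and 5.83 CPM in control libraries 1, 2 and 4 and 72.6 CPM in control library 3. Nop56, of the same complex, had 56.3 CPM in control library 3 and 9.58 to 15.5 CPM in the other 3 control libraries.

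Purine synthesis fell over most of its length. Of 13 tested genes of purine and urate metabolism 9 fell and 3 rose (median log2 fold change -0.96). Gart, which carries 3 of the steps that build the purine ring (2L:7014623-7023898), was at 252, 457, 860.0 and 762 CPM with tumours and 6836, 4564, 5762 and 6346 CPM in controls. The tumour libraries differed more than 3-fold among themselves, and every one was below 1000 CPM while every control library was above 4000 (log2 fold change -3.33 ± 0.44, adjusted p = 1.39e-06). CG11089, listed in RefSeq as atic and so the enzyme of the last ring-closing steps, fell to 1200.4 ± 494 CPM with tumours, against 9208 ± 1053 CPM in controls (log2 fold change -2.94 ± 0.48). Prat2 (log2 fold change -1.38 ± 0.23), Pfas (log2 fold change -0.79 ± 0.15), Paics (log2 fold change -1.48 ± 0.26) and Adsl (log2 fold change -2.56 ± 0.18), enzymes of the same path, fell as well. Prat, the other enzyme of the first step beside Prat2, rose (6.51 CPM with tumours, 3.47 CPM in controls, log2 fold change 0.90 ± 0.25). ras, the IMP dehydrogenase on the way to GTP, averaged 66.3 CPM with tumours, 520.4 CPM in controls (log2 fold change -2.97 ± 0.16, adjusted p = 5.01e-12), and Pu, which uses GTP to start pteridine synthesis, 36.4 CPM with tumours, 455 CPM in controls (log2 fold change -3.64 ± 0.49). Adss, on the way to AMP, rose (67.2 CPM with tumours, 25.2 CPM in controls, log2 fold change 1.41 ± 0.23).

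At the other end of the pathway ry, the xanthine dehydrogenase that makes urate, fell (70.1 CPM with tumours, 136 CPM in controls, log2 fold change -0.96 ± 0.21). Uro, the urate oxidase, rose (5.93, 24.7, 29.6 and 4.21 CPM with tumours, against 0, 0.274, 0 and 1.37 CPM in controls, log2 fold change 5.27 ± 1.10). Uro is a marker of Malpighian tubules, and the summed Malpighian markers of 7.54 to 49.9 CPM with tumours and 8.61 to 38.9 CPM in controls overlapped. These sums include Uro itself and were 22.6, 41.1, 49.9 and 7.54 CPM in tumour libraries 1 to 4. The part of Malpighian tubules in the Uro value was not tested. Without control library 4 the log2 fold change of Uro was 7.50.

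One-carbon metabolism, which supplies purine synthesis and methylation, did not move in 1 direction. Nmdmc, a mitochondrial enzyme of folate metabolism, was at 5.47, 9.13, 17.3 and 4.53 CPM with tumours and 189, 139, 125 and 186 CPM in controls (log2 fold change -4.13 ± 0.48, adjusted p = 2.72e-07). Shmt, which takes one-carbon units from serine, was at 403, 471, 429 and 437 CPM with tumours and 1639, 1257, 1817 and 1390.2 CPM in controls (log2 fold change -1.81 ± 0.12, adjusted p = 4.92e-11). Both were lower in every tumour library. In the methionine cycle the direction was the opposite. Sam-S, which makes S-adenosylmethionine, was at 1747, 2018, 1615 and 2139 CPM with tumours, against 343, 374, 389 and 334 CPM in controls (log2 fold change 2.38 ± 0.18, adjusted p = 4.63e-10). Gnmt, which uses it to methylate glycine (1433 CPM with tumours, 314 CPM in controls, log2 fold change 2.19 ± 0.29), Sardh, which takes the product back to glycine (585 CPM with tumours, 208 CPM in controls, log2 fold change 1.49 ± 0.10), and Cbs, the first step of transsulfuration (61.4 CPM with tumours, 13.7 CPM in controls, log2 fold change 2.17 ± 0.31), rose with it. Cth, the second step of transsulfuration, fell (156 CPM with tumours, 439.5 CPM in controls, log2 fold change -1.49 ± 0.19). In all, 7 of 13 genes of the list rose and 3 fell (median log2 fold change 0.58).

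Several genes of glutamine, glutamate and proline metabolism fell. Oat, which links ornithine to glutamate and proline, averaged 1.65 CPM with tumours, 1665 CPM in controls (log2 fold change -9.97 ± 0.62). The glutamine synthetase Gs2 was at 2.74, 1.14, 5.65 and 1.64 CPM with tumours and 164, 80.6, 88.2 and 147 CPM in controls (log2 fold change -5.40 ± 0.63, and -6.35 without tumour libraries 1 and 3). Gs1, the mitochondrial glutamine synthetase, fell by less (1903 CPM with tumours, 4584 CPM in controls, log2 fold change -1.27 ± 0.16). Gdh, glutamate dehydrogenase, was at 219.6, 349, 249.7 and 260.5 CPM with tumours and 426, 386, 1154 and 505 CPM in controls, with control library 3 far above the other 3 (log2 fold change -1.20 ± 0.30, adjusted p = 0.00191); without tumour libraries 1 and 3 it was at -0.96 with an adjusted p of 0.0506. P5cr, the last step to proline, fell (13.4 CPM with tumours, 29.6 CPM in controls, log2 fold change -1.14 ± 0.11). Over 15 genes of amino acid breakdown 7 rose and 5 fell (median log2 fold change 0.57), where 26.7% of all tested genes rose and 28.2% fell. The tryptophan oxygenase v was among those that rose (193 CPM with tumours, 71.0 CPM in controls, log2 fold change 1.44 ± 0.16).

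Carbohydrate genes were mostly higher. The glycogen and trehalose list had 8 of 14 genes that rose and 4 that fell (median log2 fold change 1.16), and the glycolysis and gluconeogenesis list 12 of 15 that rose and 1 that fell (median log2 fold change 0.71). tobi, a glucosidase under the control of insulin-like peptides and the glucagon-like hormone AKH, was at 315, 358, 240.2 and 176 CPM with tumours and 23.5, 11.1, 3.99 and 9.52 CPM in controls (log2 fold change 4.50 ± 0.52, adjusted p = 2.64e-07). Glycogen synthase Glys (79.6 CPM with tumours, 28.4 CPM in controls, log2 fold change 1.49 ± 0.18) and glycogen phosphorylase Glyp (226 CPM with tumours, 88.6 CPM in controls, log2 fold change 1.35 ± 0.10), which build and break glycogen, both rose. So did Pgm1, which links glycogen to glycolysis (350.0 CPM with tumours, 87.8 CPM in controls, log2 fold change 1.99 ± 0.13), and the hexokinase Hex-A (268 CPM with tumours, 98.2 CPM in controls, log2 fold change 1.45 ± 0.13). Glut1, a glucose transporter, was the outstanding exception with 0.558, 0.403, 0.674 and 0.437 CPM in tumour libraries, against 217, 172, 139.8 and 218 CPM in control libraries (log2 fold change -8.46 ± 0.64, adjusted p = 5.31e-10). Pepck2, a gluconeogenic enzyme, was the gene that fell in the second list (577 CPM with tumours, 1621 CPM in controls, log2 fold change -1.49 ± 0.34).

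The respiratory chain rose in part. Of 61 tested subunits 41 rose and 2 fell (median log2 fold change 0.44). The 2 that fell became 1 without any 1 of 6 of the libraries. By complex the risers were 20 of 32 in complex I, 3 of 4 in II, 4 of 5 in III, 4 of 9 in IV and 10 of 11 in the ATP synthase. The count of 41 rests partly on single libraries: 23 rose without tumour library 1 and 27 without tumour library 2. SdhA of complex II was at 108, 85.1, 61.9 and 68.4 CPM with tumours, against 21.02, 25.5, 24.1 and 19.1 CPM in controls (log2 fold change 1.85 ± 0.16, adjusted p = 2.18e-09). ND-AGGG of complex I went the other way (17.0 CPM with tumours, 26.6 CPM in controls, log2 fold change -0.65 ± 0.08).

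Fatty acid synthesis was raised at most of its steps. Of 13 genes 9 rose and 2 fell (median log2 fold change 1.27), the second of these not without tumour library 1, tumour library 3 or control library 3. ACC, the acetyl-CoA carboxylase that commits carbon to fat, was at 1074, 913, 859 and 1034 CPM with tumours and 126, 190.1, 95.9 and 108 CPM in controls (log2 fold change 2.90 ± 0.37, adjusted p = 8.71e-07). AcCoAS, which makes acetyl-CoA from acetate, rose (1814 CPM with tumours, 476 CPM in controls, log2 fold change 1.93 ± 0.16), while ATPCL, which makes it from citrate, fell (168 CPM with tumours, 443 CPM in controls, log2 fold change -1.40 ± 0.22). The transcription factor SREBP (227 CPM with tumours, 136 CPM in controls, log2 fold change 0.74 ± 0.08) and its escort SCAP (139 CPM with tumours, 57.6 CPM in controls, log2 fold change 1.27 ± 0.10) rose. So did the sugar-responsive factor sug (106 CPM with tumours, 42.2 CPM in controls, log2 fold change 1.33 ± 0.34). For triacylglycerol assembly, 6 of 12 genes rose and 1 fell (median log2 fold change 0.65). Agpat2, an acyltransferase of that path, averaged 53.6 CPM with tumours, 5.20 CPM in controls (log2 fold change 3.36 ± 0.28), the phosphatase Lpin 378 CPM with tumours, 191 CPM in controls (log2 fold change 0.99 ± 0.16). The gene that fell was eas, the ethanolamine kinase of phospholipid synthesis (15.96 CPM with tumours, 44.7 CPM in controls, log2 fold change -1.48 ± 0.24).

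Genes for using fat rose at the same time. Of 17 genes of lipolysis and oxidation 12 rose and 2 fell, 1 without tumour library 3 (median log2 fold change 0.45). AkhR, the receptor for AKH, was at 389, 369.6, 345 and 359.8 CPM with tumours and 108, 128, 72.5 and 106 CPM in controls (log2 fold change 1.82 ± 0.17, adjusted p = 6.27e-09). whd, the carnitine transferase that brings fatty acids into mitochondria, averaged 520.3 CPM with tumours, 230.4 CPM in controls (log2 fold change 1.18 ± 0.14). Among lipid carriers 5 of 12 rose and 4 fell (median log2 fold change 0.06). Apoltp, a lipid transfer particle protein, rose (749 CPM with tumours, 289 CPM in controls, log2 fold change 1.37 ± 0.24), and so did apolpp, the main lipoprotein of the haemolymph (17772 CPM with tumours, 13685 CPM in controls, log2 fold change 0.38 ± 0.12), which lost its call without control library 3 (0.29, adjusted p = 0.0563); without that library 3 of the list rose. The scavenger receptor santa-maria had 1, 0, 2 and 0 counts in tumour libraries 1 to 4, against 11992, 6873, 7190 and 11911 counts in control libraries. The lipocalin Karl, a carrier of small hydrophobic molecules, fell (2.30 CPM with tumours, 22.6 CPM in controls, log2 fold change -3.30 ± 0.21).

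Detoxification genes parted by family. Of 65 genes in the cytochrome P450 list 41 rose and 10 fell (median log2 fold change 0.95). The list also holds cyclophilins, which are not P450s: Cyp1, which fell, and Cyp40, which rose. By symbol, 16 of 23 Cyp6, 12 of 16 Cyp4, 5 of 6 Cyp12 and 3 of 5 Cyp9 genes rose. Cyp40 is counted under Cyp4, and Cyp6t2Psi, named as a pseudogene and not called, under Cyp6. Cyp12a4, a mitochondrial P450, was at 102, 115, 105 and 93.1 CPM with tumours and 4.79, 4.66, 3.38 and 1.96 CPM in controls (log2 fold change 4.81 ± 0.26, adjusted p = 5.01e-12). Cyp6a22 (119 CPM with tumours, 15.0 CPM in controls, log2 fold change 2.99 ± 0.18) and Cyp4d8 (115 CPM with tumours, 9.97 CPM in controls, log2 fold change 3.54 ± 0.27) rose similarly. Cyp309a1 was at 5.32, 5.57, 9.59 and 9.45 CPM with tumours, against 349, 193, 252 and 319.6 CPM in controls (log2 fold change -5.21 ± 0.32, adjusted p = 2.89e-11), and Cyp6d2 fell as well (13.8 CPM with tumours, 108 CPM in controls, log2 fold change -2.96 ± 0.16). Of 20 UDP-glycosyltransferases, which attach sugars to small molecules, 13 rose and 2 fell, 1 without tumour library 3 (median log2 fold change 1.24). Ugt35A1 averaged 117 CPM with tumours, 9.03 CPM in controls (log2 fold change 3.70 ± 0.35) and Ugt36D1 56.9 CPM with tumours, 453 CPM in controls (log2 fold change -2.99 ± 0.46).

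Glutathione S-transferases, which conjugate glutathione, went mainly the other way: of 29 tested 15 fell and 5 rose (median log2 fold change -0.56). Within the delta class 7 of 9 fell and none rose (median log2 fold change -3.01). GstD1, the major delta enzyme, was at 123, 208, 151 and 172 CPM with tumours and 1188, 822, 1262 and 1138 CPM in controls (log2 fold change -2.75 ± 0.22, adjusted p = 9.45e-10). GstD10 (19.7 CPM with tumours, 159 CPM in controls, log2 fold change -3.01 ± 0.37), GstD9 (3.72 CPM with tumours, 30.4 CPM in controls, log2 fold change -3.03 ± 0.42) and GstD3 fell too. GstD3 averaged 1.70 CPM with tumours, 27.6 CPM in controls, with 4.20 CPM in tumour library 3 and at most 0.929 CPM in the other 3 tumour libraries. Its log2 fold change was -4.93 without that library. The delta genes resemble each other in sequence, so that reads may have been divided between them. In the theta class GstT4 rose to 682, 861, 735 and 692 CPM with tumours, against 83.9, 99.2, 54.1 and 62.5 CPM in controls (log2 fold change 3.31 ± 0.22, adjusted p = 6.79e-11), and GstT3 with it (57.6 CPM with tumours, 6.65 CPM in controls, log2 fold change 3.12 ± 0.27). The 5 rising genes became 2 without tumour library 1 and 3 without control library 4. GstO3 fell (30.8 CPM with tumours, 182 CPM in controls, log2 fold change -2.56 ± 0.13).

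Of 19 redox genes 10 rose and 4 fell (median log2 fold change 0.32). The peroxiredoxin Prx2 rose (226 CPM with tumours, 41.9 CPM in controls, log2 fold change 2.43 ± 0.30), as did Gclm, a subunit of the enzyme that starts glutathione synthesis (64.0 CPM with tumours, 28.4 CPM in controls, log2 fold change 1.17 ± 0.19). Catalase, Cat, fell (913 CPM with tumours, 1485 CPM in controls, log2 fold change -0.70 ± 0.11), and the superoxide dismutase Sod1 was not called (177 CPM with tumours, 177 CPM in controls, adjusted p = 0.991). cnc, the fly Nrf2 and a known activator of GstD1, rose slightly (345 CPM with tumours, 240.2 CPM in controls, log2 fold change 0.52 ± 0.12). The paired aconitase-like genes of iron metabolism moved against each other. Irp-1A was at 40.6, 46.6, 48.5 and 44.8 CPM with tumours and 409.9, 296, 334 and 388 CPM in controls (log2 fold change -2.98 ± 0.13, adjusted p = 4.73e-13). Irp-1B was at 1089, 962, 714 and 846 CPM with tumours and 247, 307, 249 and 229 CPM in controls (log2 fold change 1.81 ± 0.15, adjusted p = 1.61e-09). Neither pair of groups overlapped. The iron carrier Tsf1 rose (1607 CPM with tumours, 493 CPM in controls, log2 fold change 1.70 ± 0.28).

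**Figure D3:**
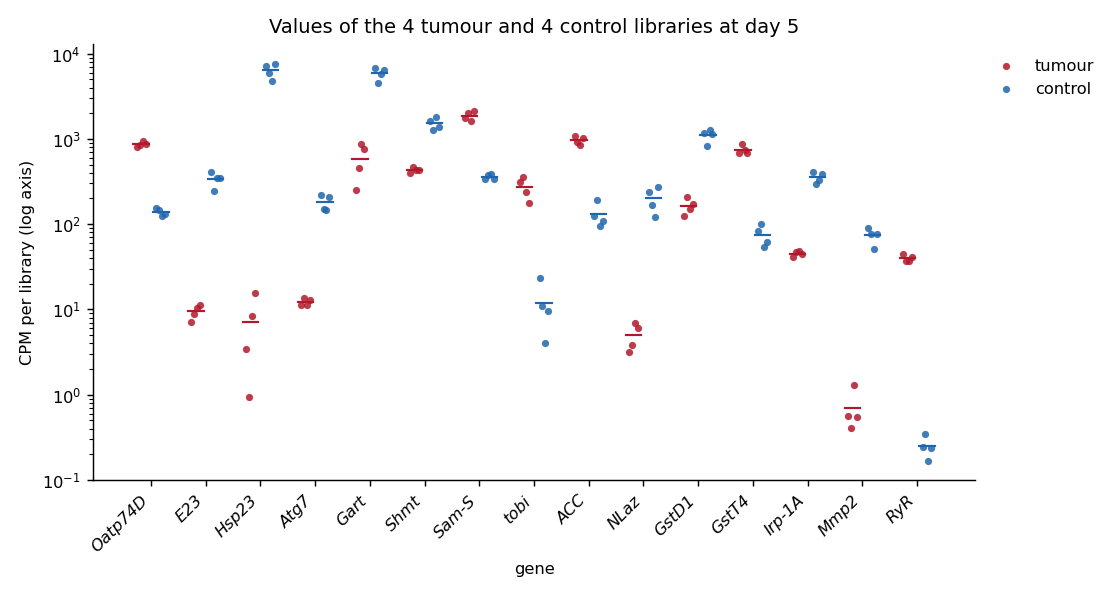
CPM of 15 genes (x axis) in each day 5 library on a log axis (y axis), with tumour libraries in red on the left of each pair and control libraries in blue on the right. Short lines mark group means, and in none of the 15 genes do the 4 tumour and 4 control libraries overlap. Over all tested genes 48.6% did not overlap. RyR averages 40.0 CPM with tumours and 0.248 CPM in controls, Atg7 12.3 CPM with tumours and 181 CPM in controls.

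Insulin and TOR signalling genes showed no common direction: of 22 tested 8 rose and 7 fell (median log2 fold change 0.14). Over all tested genes 26.7% rose and 28.2% fell. foxo, the transcription factor that insulin signalling restrains, was at 51.0, 59.6, 88.7 and 74.0 CPM with tumours and 237, 208, 203 and 226 CPM in controls (log2 fold change -1.68 ± 0.15, adjusted p = 3.38e-09). Akt, the kinase that does so, fell (44.4 CPM with tumours, 96.8 CPM in controls, log2 fold change -1.13 ± 0.12), as did mTor, the nutrient-sensing kinase (44.5 CPM with tumours, 103 CPM in controls, log2 fold change -1.21 ± 0.09). S6k, a TOR substrate that promotes translation, rose (117 CPM with tumours, 52.9 CPM in controls, log2 fold change 1.14 ± 0.12), and REPTOR, a transcription factor that TOR inhibits, rose too (75.5 CPM with tumours, 24.8 CPM in controls, log2 fold change 1.61 ± 0.28). Thor, the translation repressor 4E-BP and a foxo target, was at 389, 418, 454 and 424 CPM with tumours and 1153, 1033, 868 and 1134 CPM in controls (log2 fold change -1.31 ± 0.27, adjusted p = 2.69e-04). The insulin receptor InR was not called (29.7 CPM with tumours, 27.7 CPM in controls, adjusted p = 0.63).

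Among signals the fat body sends out, 5 of 14 fell and 3 rose (median log2 fold change 0.14), where 28.2% of all tested genes fell and 26.7% rose. NLaz, a lipocalin that dampens insulin signalling, was at 3.19, 3.83, 6.90 and 6.12 CPM with tumours and 239.9, 168, 122 and 273 CPM in controls (log2 fold change -5.32 ± 0.31, adjusted p = 1.32e-11). The insulin-like peptide Ilp6 fell (245 CPM with tumours, 504 CPM in controls, log2 fold change -1.04 ± 0.21). ImpL2, the secreted antagonist that binds insulin-like peptides, was at 262, 345, 188 and 327 CPM with tumours and 134, 145, 110.04 and 115 CPM in controls (log2 fold change 1.16 ± 0.16, adjusted p = 3.50e-06). The growth-blocking peptides, which relay feeding to the brain, parted: Gbp1 fell (28.4 CPM with tumours, 109 CPM in controls, log2 fold change -1.94 ± 0.19) and Gbp2 rose (1107 CPM with tumours, 659 CPM in controls, log2 fold change 0.75 ± 0.09). CCHa2, a nutrient-dependent peptide hormone, fell (128 CPM with tumours, 174 CPM in controls, log2 fold change -0.44 ± 0.14) but lost its call without tumour library 3 (-0.34, adjusted p = 0.0802). Without tumour library 3, 3 signals fell.

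Immune genes showed no general rise of antimicrobial peptides. Of 16 tested, none rose and 5 fell (median log2 fold change -0.59), where 28.2% of all tested genes fell. Of 13 Bomanins and related peptides 3 fell (median log2 fold change -2.21), between 0 and 5 on leaving out 1 library. Both counts that fell are near the share over all tested genes. Leaving out single libraries moved several of these values. Drs, the antifungal drosomycin, was at 47.7, 50.6, 114 and 77.8 CPM with tumours and 221, 319.8, 135 and 340.5 CPM in controls (log2 fold change -1.81 ± 0.62, adjusted p = 0.0178), and was not called without tumour library 1 or tumour library 2. DptA, a diptericin, was at 17.3, 13.8, 1.45 and 1.80 CPM with tumours and 25.5, 242, 109.8 and 42.1 CPM in controls, with control library 2 highest (log2 fold change -3.61 ± 0.97, -2.79 without that library and -4.24 without tumour library 1). Drsl5, a drosomycin relative, had 0, 0, 0 and 2 counts with tumours and 12302, 7181, 6371 and 13138 counts in controls. Without tumour libraries 1 and 3, 2 of the 16 fell.

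In the Toll and Imd pathways upstream of these peptides 8 of 23 genes rose and 8 fell (median log2 fold change 0.11), where 26.7% of all tested genes rose and 28.2% fell. Tl, the Toll receptor, rose (206 CPM with tumours, 91.1 CPM in controls, log2 fold change 1.18 ± 0.17), as did GNBP1, a recognition protein (60.3 CPM with tumours, 17.8 CPM in controls, log2 fold change 1.76 ± 0.11). The kinase pll (15.0 CPM with tumours, 40.7 CPM in controls, log2 fold change -1.44 ± 0.12), the adaptor imd (13.7 CPM with tumours, 46.7 CPM in controls, log2 fold change -1.77 ± 0.14) and the Imd inhibitor pirk (2.84 CPM with tumours, 18.7 CPM in controls, log2 fold change -2.71 ± 0.42) fell. Turandot proteins, secreted in response to stress and JAK/STAT signals, rose in 4 of 5 tested (median log2 fold change 1.36). TotC was at 261, 221, 169 and 242 CPM with tumours and 7.09, 4.18, 3.83 and 4.58 CPM in controls (log2 fold change 5.50 ± 0.34, adjusted p = 2.53e-11), and TotA averaged 5159 CPM with tumours, 2957 CPM in controls (log2 fold change 0.80 ± 0.27). In the JAK/STAT list 6 of 11 rose and 3 fell (median log2 fold change 0.50), with the feedback inhibitor Socs36E higher (32.5 CPM with tumours, 9.37 CPM in controls, log2 fold change 1.80 ± 0.26) and the transcription factor Stat92E lower (236 CPM with tumours, 394 CPM in controls, log2 fold change -0.74 ± 0.13). The haemocyte markers that rose beside these genes were 6 of 9 tested (median log2 fold change 0.95), among them Hml (37.7 CPM with tumours, 9.92 CPM in controls, log2 fold change 1.92 ± 0.27), PPO2 (93.6 CPM with tumours, 25.7 CPM in controls, log2 fold change 1.86 ± 0.38) and crq (158 CPM with tumours, 93.0 CPM in controls, log2 fold change 0.76 ± 0.16).

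Of 17 serine protease inhibitors 6 rose and 4 fell (median log2 fold change 0.28), where 26.7% of all tested genes rose and 28.2% fell. Spn43Ab was at 687, 597, 468 and 423 CPM with tumours and 86.1, 99.1, 69.9 and 84.5 CPM in controls (log2 fold change 2.68 ± 0.23, adjusted p = 3.71e-09), whereas Spn42Dd averaged 9.07 CPM with tumours, 140.3 CPM in controls (log2 fold change -3.95 ± 0.30, adjusted p = 4.60e-10). Idgf6, a secreted chitinase-like protein, rose (4127 CPM with tumours, 1157 CPM in controls, log2 fold change 1.83 ± 0.11). NimC2, a Nimrod family receptor, was at 10.04, 33.0, 77.9 and 49.1 CPM with tumours and 4868, 3500.0, 3584 and 4508 CPM in controls (log2 fold change -6.60 ± 0.67, adjusted p = 4.27e-08), with tumour libraries differing more than 7-fold.

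Basement membrane genes, which the fat body supplies to other organs, rose in 8 of 14 and fell in 3 (median log2 fold change 0.89). The collagen IV chains Col4a1 (4399.6, 3749, 2844 and 3047 CPM with tumours, against 1504, 1616, 1795 and 1551 CPM in controls) and vkg (1761 CPM with tumours, 793 CPM in controls, log2 fold change 1.15 ± 0.21) rose together. Ppn, the proteoglycan-like papilin, rose most steeply among the genes of the list above 20 CPM (49.4 CPM with tumours, 6.33 CPM in controls, log2 fold change 2.96 ± 0.25), and SPARC, a collagen-binding protein, rose as well (1121 CPM with tumours, 633 CPM in controls, log2 fold change 0.83 ± 0.12). The laminin chains did not move together. LanB1, the beta chain, was at 44.9, 47.2, 36.6 and 23.9 CPM with tumours and 349, 273, 269 and 361 CPM in controls (log2 fold change -3.04 ± 0.21, adjusted p = 8.72e-11). LanA, the alpha chain (924 CPM with tumours, 1078 CPM in controls, adjusted p = 0.214), and LanB2, the gamma chain (229 CPM with tumours, 253 CPM in controls, adjusted p = 0.363), were not called. The perlecan trol fell slightly (2905 CPM with tumours, 3982 CPM in controls, log2 fold change -0.45 ± 0.11). Haemocytes also make these proteins, and their summed markers were higher with tumours, as given above.

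Both matrix metalloproteases, which cut basement membrane as the fat body comes apart at metamorphosis, were low. Mmp2 (0.558, 0.403, 1.30 and 0.546 CPM with tumours, against 90.9, 75.9, 50.5 and 77.2 CPM in controls) was below 2 CPM in every tumour library (log2 fold change -6.68 ± 0.57, adjusted p = 3.28e-09). Mmp1 was at 1.82, 1.01, 13.7 and 1.58 CPM with tumours and 36.2, 23.9, 22.5 and 60.4 CPM in controls, with tumour library 3 apart from the other 3 (log2 fold change -2.96 ± 0.72, and -4.53 without that library). That library also had the highest tracheal marker sum. Of 14 genes of adhesion and matrix cutting 4 rose and 3 fell (median log2 fold change -0.11), where 26.7% of all tested genes rose and 28.2% fell. Without control library 3, 2 rose and 5 fell.

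Single genes of smaller lists changed while other members did not or moved the other way. Of 6 calcium genes 2 rose and 2 fell, and 1 fell when tumour library 3, tumour library 4 or control library 3 was left out. RyR, the ryanodine receptor that releases calcium from internal stores, was at 44.9, 36.8, 37.3 and 40.9 CPM with tumours and 0.242, 0.342, 0.169 and 0.238 CPM in controls (log2 fold change 7.32 ± 0.21, adjusted p = 4.59e-16). Markers of muscle, where RyR is abundant, summed to 170 to 403 CPM with tumours and 95.04 to 131 CPM in controls. The muscle gene Mhc was at 5.32, 5.17, 56.2 and 4.92 CPM with tumours and 5.94, 6.71, 3.77 and 3.45 CPM in controls. The log2 fold change of Mhc was 1.86, and 0.10 without tumour library 3. Mhc is 1 of 14 muscle markers tested, of which 6 rose and 8 were not called (median log2 fold change 1.29). Over all tested genes 26.7% rose. The part of muscle in the RyR value was not tested. Itpr, the other calcium release channel of the ER, rose (244 CPM with tumours, 149 CPM in controls, log2 fold change 0.71 ± 0.12). Of 9 genes of the list of sex determination, dosage compensation and yolk proteins 3 rose and 1 fell, and 2 fell when control library 2 or 3 was left out. fru, a transcription factor gene of sex-specific neurons, was at 75.3, 62.2, 88.5 and 76.4 CPM with tumours and 8.91, 15.8, 10.6 and 8.15 CPM in controls (log2 fold change 2.80 ± 0.19, adjusted p = 1.13e-10). Neuron markers summed to 465 to 545 CPM with tumours and 466 to 614 CPM in controls. glob1, a globin, rose (557 CPM with tumours, 30.8 CPM in controls, log2 fold change 4.18 ± 0.41), as did Pex5, the receptor that imports enzymes into peroxisomes and 1 of 5 among 13 peroxisome biogenesis genes that rose while 2 fell (203 CPM with tumours, 60.6 CPM in controls, log2 fold change 1.74 ± 0.12). RnrS, a subunit of ribonucleotide reductase, fell (3.76 CPM with tumours, 42.0 CPM in controls, log2 fold change -3.47 ± 0.29). Of 28 DNA replication genes 6 rose and 5 fell (median log2 fold change 0.30), where 26.7% of all tested genes rose and 28.2% fell. Without tumour library 3 these counts were 3 and 3, and without tumour library 2 the count that fell was 3. Cpr49Ac, a cuticle protein gene, fell (1520.0 CPM with tumours, 5261 CPM in controls, log2 fold change -1.79 ± 0.20) and made up most of the cuticle marker sum of 1076 to 2116 CPM with tumours and 4625 to 5851 CPM in controls.

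**Figure D4:**
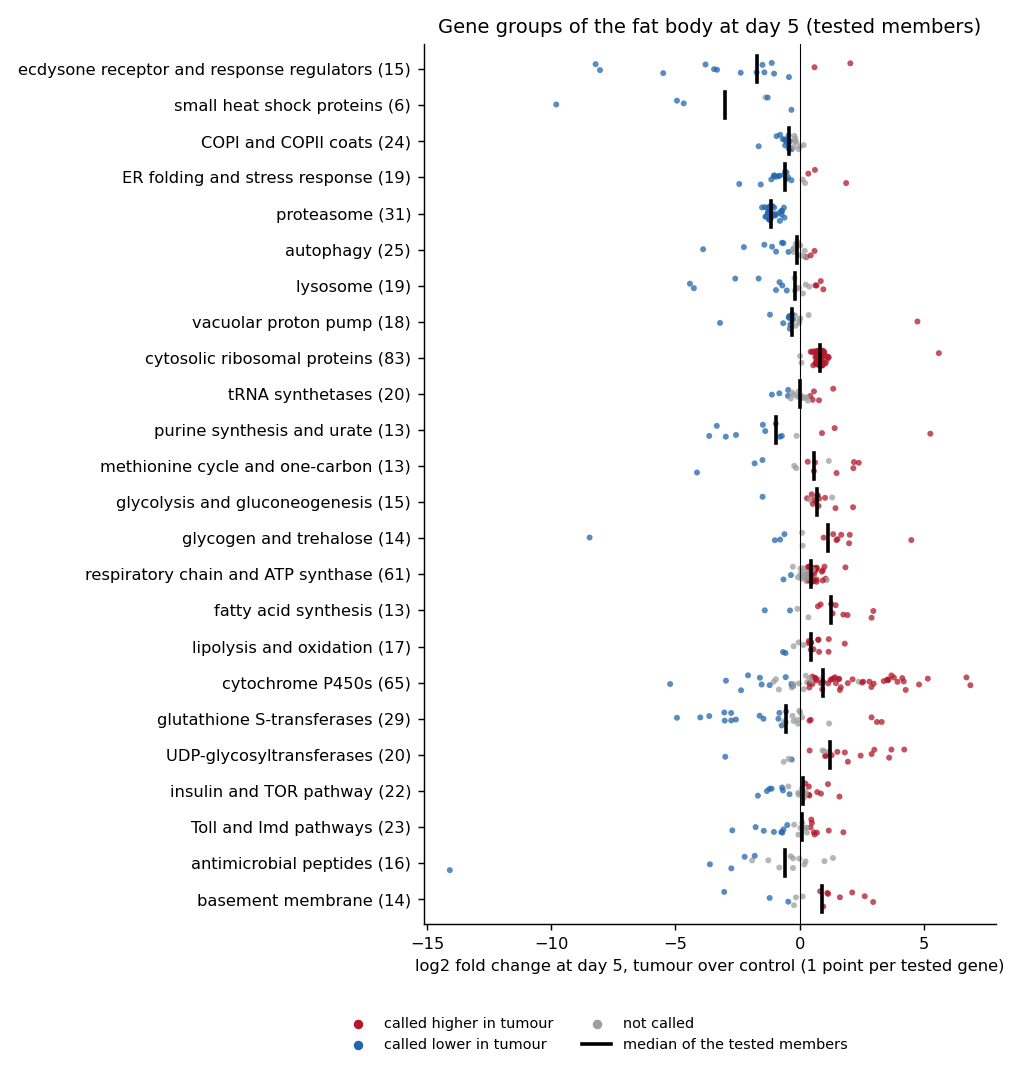
Log2 fold change of tumour over control at day 5 (x axis) for each tested member of 24 gene groups (y axis, number of tested members in brackets). Red points were called higher with tumours, blue points lower and grey points neither, and black bars mark medians. The gene Cth is drawn in both the ecdysone and the methionine group, and the cytochrome P450 group includes the cyclophilins Cyp1 and Cyp40. The proteasome members all lie below 0 with a median of -1.16, and the cytosolic ribosomal proteins lie above 0 with a median of 0.81.

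The same comparison at day 4, made on 8 other libraries, called fewer genes, 2191. Of the day 5 calls 33.5% were called in the same direction at day 4, and of the day 4 calls 73.0% were called in the same direction at day 5. Testing the difference between both effects called 28.8% of genes, 12.1% with a more positive and 16.8% with a more negative effect at day 5. For some of the largest effects no difference between the days was called. Fbp1 had a log2 fold change of -6.94 at day 4 and -6.50 at day 5, NimC2 -6.39 and -6.60, and Cyp12a4 5.12 and 4.81, with adjusted p of 0.73, 0.872 and 0.532 for the difference.

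Other effects were called at day 5 and not at day 4. For NLaz the log2 fold change was -0.29 at day 4 and -5.32 at day 5 (difference -5.03 ± 0.42, adjusted p = 2.30e-08). For Atg7 it was -0.20 and -3.89 (difference -3.69 ± 0.26, adjusted p = 3.24e-09), for LanB1 -0.14 and -3.04 (difference -2.90 ± 0.27, adjusted p = 1.02e-07), and for Shmt -0.09 and -1.81 (difference -1.72 ± 0.16, adjusted p = 1.02e-07). Among the genes with a higher effect at day 5, called at day 4 or not, Msr-110 had log2 fold changes of 0.79 at day 4 and 3.42 at day 5. TotC had 1.91 and 5.50, and was called at day 4 too (adjusted p = 6.34e-05 by edgeR). The control levels behind these values differed between the days. Atg7 averaged 14.9 CPM with tumours and 17.1 CPM in controls at day 4, and 12.3 CPM with tumours and 181 CPM in controls at day 5. NLaz averaged 3.59 CPM with tumours and 4.39 CPM in controls at day 4, and 5.01 CPM with tumours and 201 CPM in controls at day 5. Eip78C averaged 0.608 CPM with tumours and 0.887 CPM in controls at day 4. At day 5 it averaged 0.476 CPM with tumours and 145 CPM in controls. Over 8707 genes, day 5 tumour means had a Spearman correlation of 0.91 with day 5 control means and 0.95 with day 4 control means. With day 4 tumour means it was 0.958. The part of developmental stage in the day 5 differences was not tested.

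In 107 genes the effect was called in opposite directions at the 2 ages, 77 higher with tumours at day 4 and lower at day 5, and 30 the reverse; the difference was called in all 107. Thor at day 4 averaged 264 ± 106 CPM with tumours against 127 ± 44.3 CPM in controls (log2 fold change 1.06, adjusted p = 0.00543), against -1.31 at day 5. Stat92E, the JAK/STAT transcription factor, had log2 fold changes of 0.75 at day 4 and -0.74 at day 5, CD98hc, a subunit of amino acid transporters, 1.23 and -1.03, and scf, a calcium-binding protein of the secretory pathway, 1.62 and -2.26. LManI and Gbp1, described above, belong here as well (0.66 and -2.59, 0.57 and -1.94). The reverse held for EcR (-0.60 at day 4, 0.60 at day 5), for Eaat1, a glutamate transporter (-0.56 and 1.37), and for CG9674 (-0.64 and 1.63) and CG18135 (-1.41 and 0.80). The day 5 groups of EcR overlapped, and its day 5 call was lost in several settings, as given above. Neighbouring genes or near-identical copies can share reads, and the sources used here do not say whether strand was used in counting.

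**Figure D5:**
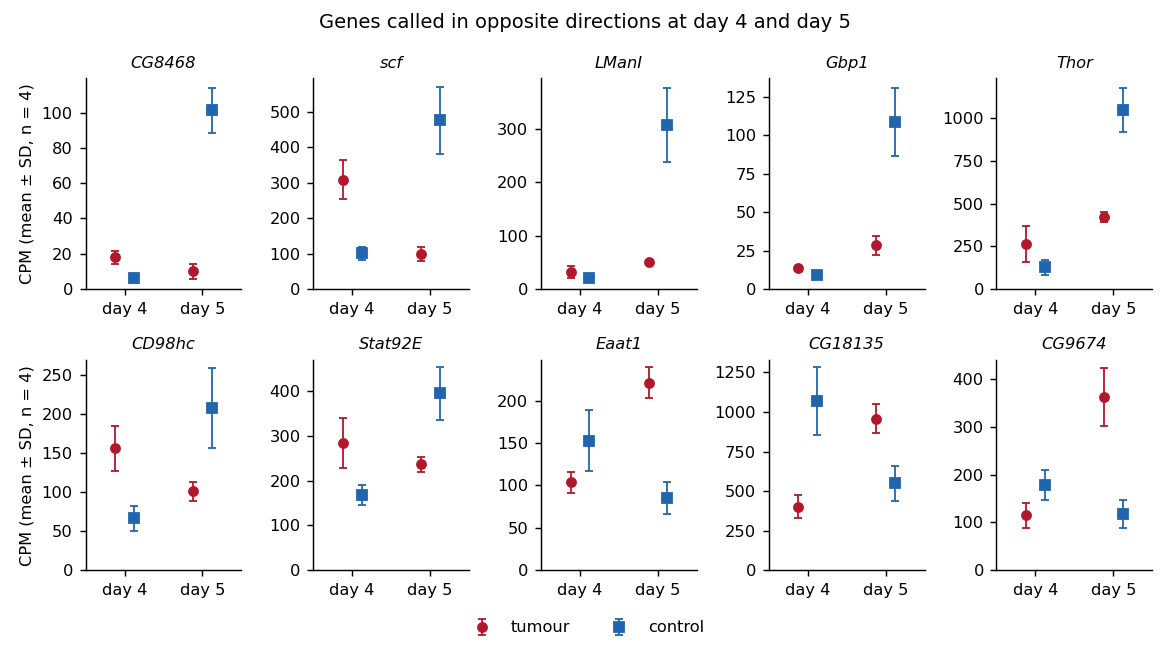
Mean CPM ± SD (y axis, n = 4 libraries) of 10 genes called in opposite directions at day 4 and day 5 (x axis), with tumour in red circles on the left and control in blue squares on the right of each day. Thor averages 264 CPM with tumours and 127 CPM in controls at day 4, and 421 CPM with tumours and 1047 CPM in controls at day 5.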

How the data were processed

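Raw read counts per gene were deposited by the authors as 1 table with 1 column for each of 24 libraries. STAR 2.5.4a and genome build BDGP6 are named in the submitters' processing notes without a role. Which program counted reads, and whether by strand, is not given in the sources used here. Symbols and coordinates come from annotation BDGP6.54, which matched 17560 of 17698 identifiers. Libraries went to groups by their labels, and no replicates agreed within sampling noise (chi-square over genes), so none was counted as a repeat.

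From the deposited counts, genes passing edgeR's filterByExpr over 6 groups (8707 of 17698) were fitted with edgeR 4.0.16 (R 4.3.3, limma 3.58.1): TMM scaling, 1 mean per group, robust quasi-likelihood F tests and Benjamini-Hochberg adjustment, called at 0.05. A standard error is the log2 fold change divided by the root of F. Shares and summed markers were compared by exact permutation tests (scipy 1.17.1, Python 3.11.15), markers as log2(summed CPM + 1). The depth of 16477328 to 21711263 counts per library leaves genes of a few counts imprecise. Code was tested on simulated data.

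Genes were named among called genes without overlap between groups: the 10 highest and 10 lowest fold changes reaching 100 CPM, the 10 largest gains and losses in CPM, up to 4 per list reaching 20 CPM, the 6 highest and 6 lowest differences between the ages reaching 100 CPM, members of lists with at most 12 tested genes and a few fixed genes. Other genes were named after their values were seen. The members and the 53 gene and 14 marker lists (842 entries, 17 not matched) were chosen with earlier results of these data known. Alternatives were RLE factors, DESeq2 1.42.0, no filter, day 5 libraries alone, a replicate block, factors without the 20 most abundant genes, no robust option, a 2-fold minimum (glmTreat), a storage list without Fbp1 and Fbp2, markers without scaling factors, and leaving out libraries. Figures were drawn with matplotlib 3.10.9. One further item is not reported here.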

Additional observations from a re-analysis of the deposited data

Results flagged for a closer look

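In groups of 4 libraries, 1 library was set apart when its gap to the nearest other library exceeded 82.9% of the group's range. Chance gives this in about 1 of 20 groups, and 2 groups of every gene described were examined. Among tumour libraries the lowest value stood apart for Lsp2 at 5159 CPM, Gbp2 at 1055 CPM, LManI at 46.2 CPM, lncRNA:roX1 at 123.5 CPM and Drice at 20.3 CPM. The highest tumour value stood apart for CG17739 at 1.24 CPM, Drsl5 at 0.109 CPM, S6k at 131 CPM, GstD3 at 4.20 CPM, GstO3 at 38.3 CPM, Mmp1 at 13.7 CPM, CG18135 at 1092 CPM, Mhc at 56.2 CPM, Vha68-3 at 8.26 CPM and Cat at 1027 CPM. Among control libraries the highest value stood apart for Nop56 at 56.3 CPM, Fib at 72.6 CPM, TrpRS at 44.5 CPM, Gdh at 1154 CPM, GstD10 at 278 CPM and Socs36E at 13.6 CPM, and the lowest for CG8468 at 82.4 CPM. Of the summed cell type markers, the highest tumour library stood apart for haemocytes (528 CPM), testis (169 CPM) and trachea (112 CPM). The highest control library stood apart for the salivary gland (1667 CPM) and the Malpighian tubules (38.9 CPM).

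For the genes that follow, the tumour effects at day 5 and day 4 differed by edgeR's test of the difference, given as the day 5 minus the day 4 log2 fold change with its adjusted p. Among genes reaching 100 CPM for which the difference was called, the 6 most negative differences were those of CG5697 (-11.51, adjusted p = 1.36e-06 by edgeR), Drsl5 (-11.00, adjusted p = 0.0255), CG9812 (-9.05, adjusted p = 1.63e-05), CG1607 (-8.64, adjusted p = 5.72e-07), Hr4 (-7.91, adjusted p = 1.16e-07) and Eip78C (-7.68, adjusted p = 8.43e-08). The fitted values of Drsl5 and CG5697 depend on tumour counts close to 0. CG1607 averaged 2.499 CPM with tumours, 549.9 CPM in controls at day 5 (log2 fold change -7.75 ± 0.74, and -9.17 without tumour libraries 1 and 3). The 6 most positive of these were those of CG32073 (6.22, adjusted p = 0.000745 by edgeR), Cyp4e3 (4.34, adjusted p = 4.37e-06), TotC (3.59, adjusted p = 1.53e-06), CG43085 (2.89, adjusted p = 8.01e-05), CG8051 (2.82, adjusted p = 8.37e-08) and Msr-110 (2.63, adjusted p = 3.36e-06). Cyp4e3 averaged 347 CPM with tumours, 2.95 CPM in controls at day 5 (log2 fold change 6.88 ± 0.44). CG43085 averaged 1208 CPM with tumours, 88.1 CPM in controls (log2 fold change 3.78 ± 0.36), and CG8051 161 CPM with tumours, 16.1 CPM in controls (log2 fold change 3.32 ± 0.20).

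Among genes named for their change between the ages, the difference was -5.03 for NLaz, -3.69 for Atg7, -2.90 for LanB1, -1.72 for Shmt, -2.37 for Thor, -1.49 for Stat92E, -2.26 for CD98hc, -3.88 for scf, -3.25 for LManI, -2.51 for Gbp1 and -4.91 for CG8468. It was 1.21 for EcR (adjusted p = 0.00392 by edgeR), 1.93 for Eaat1, 2.26 for CG9674 and 2.20 for CG18135.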

How the results depend on the processing

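The count of 4778 genes called at day 5 (2326 higher, 2452 lower) was 4770 with RLE size factors, 4907 with DESeq2, 5178 with no low-count filter, 4266 with day 5 libraries alone, 4756 with scaling factors computed without the 20 most abundant genes and 4784 without the robust option. Testing against a minimum of 2-fold called 1299 (636 higher, 663 lower), a count that is lower by that test's construction. Leaving out 1 library at a time gave 4419 to 4752 genes, with 2047 to 2400 higher and 2209 to 2445 lower. Without tumour libraries 1 and 3, a choice made after seeing the data, it was 3927. The difference between the effects of days 5 and 4, called for 2511 genes, was called for 1867 to 2729 under these settings, and for 403 against the 2-fold minimum. Leaving out 1 library at a time gave 2216 to 2695. The storage share difference of -8.94 points was between -10.3 and -7.47 on leaving out 1 library, where p was 0.0571, the smallest that 3 against 4 libraries allow in the exact permutation test. It turned to 14.2 points with Fbp1 and Fbp2 left out, and to 14.7 points with Fbp1 alone left out, a setting added after seeing the data. Of 14 marker lists, 0 passed the adjusted exact permutation test in any setting. With all libraries 5 lists had an unadjusted p of 0.0286, the smallest that 4 against 4 libraries allow, and adjustment over the lists raised it to 0.08. On leaving out 1 library the smallest p is 0.0571, so no list could pass. The count of 0 therefore does not show that the marker sums were alike. Over 208 genes and 17 settings, 70 genes lost a call or changed direction, 68 of them under the 2-fold minimum and 10 under another setting. The 1 reversal was Fib, at -0.12 with all libraries, -0.45 without control library 4 and 1.49 (adjusted p = 0.0124 by edgeR) without control library 3.

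Same-numbered tumour and control libraries did not deviate together (Pearson's r across genes of -0.000845, 0.0569, 0.0106 and -0.30), so the numbers do not pair them. With the replicate number as a block 4689 genes were called at day 5, and 2445 for the difference. Precision is limited by 4 pools a group and, for genes of few counts, by depth.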

Other observations

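Tumour larvae were also sampled at days 8 and 11, for which there were no control libraries, so the levels are given beside those of day 5 as values with no test. Of the 97 genes described here that fell at day 5, 67 had tumour means of days 8 and 11 both below 50% of the day 5 control mean, and 4 reached the control mean on at least 1 of these days. Among these 4 were eas, at 105 CPM at day 11 with tumours against 44.7 CPM in day 5 controls, and Akt, at 99.3 CPM at day 8 and 128 CPM at day 11 with tumours against 96.8 CPM in day 5 controls. Hsp23 averaged 7.10 CPM at day 5, 125 CPM at day 8 and 124 CPM at day 11 with tumours, against 6391 CPM in day 5 controls. Atg7 averaged 12.3, 22.5 and 17.5 CPM on the same days with tumours, against 181 CPM in day 5 controls. NLaz averaged 5.01, 33.4 and 54.8 CPM with tumours, against 201 CPM in day 5 controls, and Mmp2 0.701, 15.7 and 20.4 CPM with tumours, against 73.6 CPM in day 5 controls. Gart averaged 583, 1670.1 and 1489.6 CPM with tumours, against 5877 CPM in day 5 controls. TotC, high at day 5, averaged 417 CPM at day 8 and 731 CPM at day 11 with tumours. RyR averaged 37.5 CPM at day 8 and 36.9 CPM at day 11 with tumours. GstD1 averaged 82.3 CPM at day 8 and 49.8 CPM at day 11 with tumours.

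Of 220 tested long non-coding RNAs at day 5, 50 rose and 54 fell (median log2 fold change -0.09), where 26.7% of all tested genes rose and 28.2% fell. With day 5 libraries alone in the fit 31 of them rose. lncRNA:roX1, the dosage compensation RNA of males, was at 239, 124, 250.0 and 252 CPM with tumours and 273, 177, 109.99 and 319.9 CPM in controls, and the groups overlapped (log2 fold change -0.02, adjusted p = 0.952 by edgeR). Odorant-binding protein genes, few of which were tested (9 of 51), held 3 that fell and none that rose by edgeR, with 2 higher at an unadjusted p under 0.05 and 1 higher by DESeq2. Obp83ef averaged 30.2 ± 2.52 CPM with tumours and 266 ± 57.5 CPM in controls (log2 fold change -3.14 ± 0.20, adjusted p = 3.99e-11 by edgeR).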
